A study of Xenopus laevis with 3 samples.

Results

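The genes described here are ins.L and ins.S, the insulin gene copies of Xenopus laevis, measured in heads of tadpoles given a morpholino. They were found as the probe sets whose only platform gene symbol was ins.L or ins.S, which gave 2 probe sets for 2 genes, out of 32635 probe sets and 11303 genes with a single symbol. The pair was chosen by its measured intensities on these same arrays, having been picked because it differed from the CoMO array, so its levels and differences are a description and carry no test. No probe set with several symbols (0 of them) named an insulin gene, and neither member was lost to a filter. X. laevis is an allotetraploid frog that carries many genes as homeologs, copies from the long (.L) and short (.S) chromosomes of its subgenomes.

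Insulin is a peptide hormone made by the beta cells of the pancreatic islets. It is translated as preproinsulin, folded in the endoplasmic reticulum, cut by the prohormone convertases and carboxypeptidase E, and stored with zinc in secretory granules until glucose triggers release. It acts through a receptor tyrosine kinase, insulin receptor substrates and the kinase Akt to raise glucose uptake and lower glucose production in the liver. The pancreas forms from the foregut endoderm, behind the head, and insulin is used as a marker of the first endocrine cells of the pancreas in Xenopus embryos.

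The study examined the role of the protein kinase MLTK in cartilage formation. Morpholinos, which block translation or splicing of a chosen mRNA, had been injected at 10 ng per cell into the animal pole of every blastomere of 4-cell embryos kept at 22 °C, and heads were taken 72 hours after fertilisation, near stage 41. The groups were heads given CoMO (the control in each comparison with it), xMLTK-MO against the protein kinase MLTK, and xSox6-MO against the transcription factor Sox6, with 1 array each. The labels state no strain, no number of heads per array and no clutch. A morpholino given to every blastomere is not limited to a tissue, and depletion of the target proteins was not measured on these arrays. With 1 array per group the spread between embryos is unknown, no p-value was computed, and the number of arrays limits the precision.

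The authors' RMA values are linear probe-set intensities. Their lower limit was set by 23 negative control probe sets, which match no Xenopus transcript. The brightest of them had an intensity of 23.3 in CoMO, 26.2 in xMLTK-MO and 21.0 in xSox6-MO, well above the second brightest at 13.4, 14.5 and 14.2. Where a gene was no brighter than the brightest control of its array, its level is known only as an upper limit, and the fold was computed against that control and written as "at least".

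The probe set of ins.L had an intensity of 12.3 in CoMO, 175 in xMLTK-MO and 79.4 in xSox6-MO. That of ins.S had an intensity of 11.4 in CoMO, 245 in xMLTK-MO and 128 in xSox6-MO. Both copies were thus dimmer than the brightest negative control on the CoMO array and brighter than every negative control on both morphant arrays, with xMLTK-MO the highest and xSox6-MO between.

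**Figure D1:**
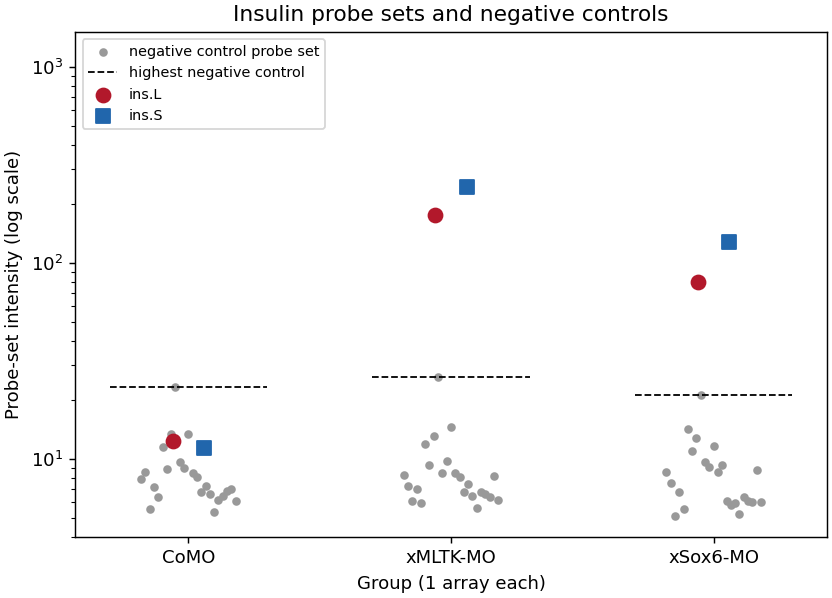
Intensity (log scale) of the ins.L and ins.S probe sets on the 3 arrays, 1 array per group, with the 23 negative control probe sets as grey points and the highest of them as a dashed line. In CoMO both insulin points lie among the controls, at 12.3 and 11.4, and on the morphant arrays they lie between 79.4 and 245, above every control.

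In CoMO, ins.L was brighter than 20 of the 23 negative controls and ins.S brighter than 19, so neither could be told from unspecific signal. On the xMLTK-MO array ins.L was 6.70 times and ins.S 9.35 times as bright as the highest control, and on the xSox6-MO array the ratios were 3.77 and 6.08. Within each array, 16.6% of all probe sets were dimmer than ins.L in CoMO, 63.9% in xMLTK-MO and 47.7% in xSox6-MO. The matching shares for ins.S were 15.3%, 71.3% and 56.9%. The insulin signal of the morphant heads was therefore of middling brightness for these arrays. The levels of ins.L and ins.S were not compared with each other, because they come from different probes.

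Compared with CoMO, the bounds were 7.54-fold or more for ins.L and 10.5-fold or more for ins.S, both higher in xMLTK-MO heads. Of 9683 genes above the controls on at least 1 of these arrays, 1.51% were higher by 2-fold or more and 0.775% lower by as much. Among the 9432 other genes above the controls on both arrays, 6 were higher by as much as the bound of ins.L and 2 by as much as that of ins.S. Since the members were chosen for this difference, these shares describe their place and do not test it. As heads were measured in bulk, more insulin cells and more insulin RNA per cell cannot be told apart.

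Compared with the same CoMO array, both copies were higher in xSox6-MO heads, ins.L by 3.41-fold or more and ins.S by 5.49-fold or more. Higher by 2-fold or more were 1.03% of the 9764 genes that exceeded the controls on either array, and 1.05% were lower by as much. Of the 9530 other genes above the controls on both arrays, 17 were higher by as much as the bound of ins.L and 5 by as much as that of ins.S. Because both comparisons rest on the same CoMO array, a low reading there would enter all 4 bounds.

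Between the morphants, where every value was above the controls, the folds are measured and not bounds. ins.L was 2.21-fold higher in xMLTK-MO than in xSox6-MO, a log2 difference of 1.14. ins.S was 1.91-fold higher, a log2 difference of 0.94, and so stayed short of 2-fold. Of 9714 genes above the controls on at least 1 of these arrays, 0.597% were higher in xMLTK-MO by 2-fold or more and 0.247% lower by as much. Among the 9459 other genes above the controls on both, 36 differed upwards by as much as ins.L and 74 by as much as ins.S. No replicate shows whether a difference of this size exceeds that between batches of embryos.

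The scalings tried moved these values little. Centring the arrays on 27 hybridisation control probe sets, which report labelled RNA added before hybridisation, adds 0.10 to each log2 difference of xMLTK-MO from CoMO and 0.18 to each of xSox6-MO from CoMO, and takes 0.08 from that between the morphants. At genes passing a level filter, 93 were at least 2-fold higher and 57 lower in xMLTK-MO than in CoMO, which became 127 and 38 after this centring. For xSox6-MO the split of 71 and 77 became 122 and 48, and between the morphants 36 and 16 became 27 and 22. Small negative differences given for other genes take the opposite sign under it where they are smaller than the shift. A further 36 control probe sets, for poly-A RNA, had larger median log2 differences from CoMO, -0.27 in xMLTK-MO and -0.35 in xSox6-MO. Centring on them was not tried.

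Few other genes were below the controls in CoMO and clearly above them in a morphant. Of 1686 genes not above the controls in CoMO, 0.83% were at least 2-fold higher in xMLTK-MO and 0.534% in xSox6-MO, which is 14 and 9 genes with the insulin pair among each. Besides insulin, the 14 in xMLTK-MO held c1qtnf9b.L, at least 20.4-fold higher, and atp4a.S, at least 16.5-fold. atp4a encodes the catalytic subunit of the proton pump that acidifies the stomach. Others of the 14 were the carboxypeptidase gene cpa1.L at 2.53-fold, the pancreatic lipase gene pnlip.L at 2.08-fold and serpini2.L at 3.84-fold, each as a lower bound. In xSox6-MO they included c1qtnf9b.L (12.7-fold), atp4a.S (5.01-fold) and pnlip.L (3.10-fold), again as lower bounds. All these bounds are set against the same control value, so their order is that of brightness in the morphant and does not rank the true folds. These names were chosen after their values had been seen.

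Both homeologs of insulin were higher, as was so of few pairs. The insulin pair was chosen for its difference from CoMO, so the shares given next describe its place and do not test it. Of 1676 homeolog pairs with each copy above the controls on at least 1 array, 0.477% had both copies at least 2-fold higher in xMLTK-MO than in CoMO, 0.418% in xSox6-MO, and 0.119% in xMLTK-MO against xSox6-MO. In xMLTK-MO these 8 pairs were ins, the gastric protease ctse, the endoderm and heart transcription factor gata5, the binding protein igfbp1, the cytokine inhibitor socs3, and the granule enzymes mpo, prss57 and prtn3. In xSox6-MO the 7 pairs were ins, ctse, gata5, prtn3, klf10, the muscle regulator myog and the neuronal filament gene prph. For the gata5 copies the folds were 3.17 and 2.79 in xMLTK-MO and 2.36 and 2.18 in xSox6-MO. Between the morphants the insulin pair was not among the 2 pairs past 2-fold, as ins.S was short of it. Homeologs are close in sequence and may share some probe signal, so the copies are not independent readings.

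Other genes of the insulin family were measured on the same arrays. igf2.S, an insulin-like growth factor that acts in growth of the embryo, had intensities of 68.4 in CoMO, 111 in xMLTK-MO and 113 in xSox6-MO, or log2 differences of 0.70 and 0.72. igf2.L had 149, 187 and 147. igf3.L, an insulin-like growth factor described in fish and frogs, had 160 in CoMO, 91.1 in xMLTK-MO and 257 in xSox6-MO, so it lay on opposite sides of CoMO in the morphants. All 3 were above the controls on every array, and 0 of them differed from CoMO by 2-fold. So few genes would also give that count at the shares over all genes. In the RefSeq gene table of assembly Xenopus_laevis_v10.1, igf2 follows directly after ins on both subgenomes and th (tyrosine hydroxylase, not measured here) precedes it. The differences of the igf2 copies were thus smaller than those of the neighbouring insulin copies by more than 2 on the log2 scale in xMLTK-MO.

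No rise like that of insulin was seen in the measured hormones of other islet cells. gcg.L, the gene of glucagon from alpha cells, had intensities of 7.38 in CoMO, 8.77 in xMLTK-MO and 8.68 in xSox6-MO and was not above the controls on any array. Somatostatin, made by islet delta cells and also by neurons, was bright throughout, with sst.1.L at 544 in CoMO, 588 in xMLTK-MO and 497 in xSox6-MO. sst.1.S had 169, 173 and 156. A change of gcg.L below the controls, or of somatostatin in islets beside signal from neurons, would not show here. Of 10 symbols on the list of islet hormones 3 were measured here, and the gene of the beta cell peptide amylin (iapp) was not among them.

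Genes that make and release peptide hormones did not differ as insulin did. This list covers convertases, granins, granule and release proteins, most of which neurons also use. Of its 23 genes 22 were above the controls on at least 1 array of each pair, and 0 were 2-fold higher or lower in any of the 3 comparisons. A list of this size would also give that count at the shares over all genes. Against CoMO those shares were 1.51% higher and 0.775% lower in xMLTK-MO, and 1.03% and 1.05% in xSox6-MO. The median log2 difference over those 22 was 0.01 in xMLTK-MO and -0.10 in xSox6-MO against CoMO, beside -0.02 over all genes above the controls in each. The zinc transporter gene slc30a8.L, whose product loads insulin granules with zinc, had intensities of 82.3 in CoMO, 58.2 in xMLTK-MO and 71.5 in xSox6-MO. slc2a2.L, a glucose transporter gene of beta cells and liver, had 505, 344 and 458. Over the list 11 genes were higher and 11 lower in xMLTK-MO than in CoMO. The convertase gene pcsk2.L had 68.8, 70.2 and 84.7, and the amidating enzyme gene pam.S 320, 418 and 316. Other beta cell markers (pdx1, nkx6-1, mafa, pcsk1, g6pc2 and abcc8) were not measured here.

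The listed transcription factors of islet development lay within 2-fold of CoMO. Of 14 genes, 11 were above the controls on at least 1 array of the xMLTK-MO comparison and 12 for xSox6-MO, and 0 passed 2-fold in either direction. A list of this size would also give that count at the shares over all genes. The medians of the list were 0.26 and 0.11, beside -0.02 over all genes above the controls in each comparison. hhex.L entered the second median only through the xSox6-MO array, and over the 11 genes above the controls in CoMO that median was 0.23. mnx1.L, needed for the early pancreatic bud in mice and also a motor neuron gene, came nearest, with intensities of 27.7 in CoMO, 53.5 in xMLTK-MO and 32.4 in xSox6-MO. nkx2-2.S, a beta cell and ventral neural tube factor, had 40.8, 57.2 and 71.9, and the islet factor isl1.S 26.2, 35.8 and 44.5. nkx6-2.L had 36.5, 47.3 and 48.8. These genes are also active in the brain and spinal cord, so their levels in heads are not specific to islets.

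**Figure D2:**
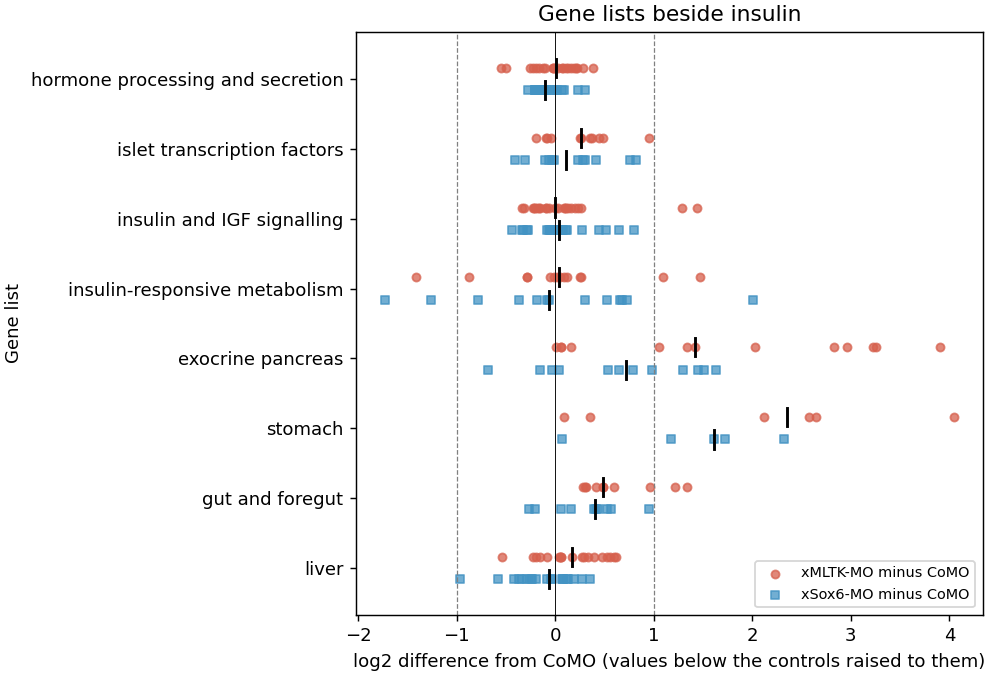
Log2 difference from CoMO of each gene in 8 lists, for xMLTK-MO (circles) and xSox6-MO (squares), for genes above the controls on at least 1 array of the pair, with values below the controls raised to them; black bars are medians and dashed lines mark 2-fold. Hormone processing genes stay near 0, whereas exocrine pancreas and stomach genes reach 3.91 and 4.05 in xMLTK-MO.

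Genes of the exocrine pancreas, whose acinar cells surround the islets, were higher beside insulin in part. Most of the list are digestive enzyme genes, and it also holds the transcription factor gene ptf1a. That gene had intensities of 33.6 in CoMO, 89.7 in xMLTK-MO and 48.8 in xSox6-MO. It was 2.67-fold higher in xMLTK-MO than in CoMO, and heads measured in bulk do not show which tissue its signal came from. ptf1a is 1 of the 9 genes counted next. Of 28 genes, 13 were above the controls on an array of the xMLTK-MO comparison; 9 of these passed 2-fold upwards and 0 downwards, beside 1.51% and 0.775% of all genes, and their median was 1.42 beside -0.02. Among the 9, cpa1.L and pnlip.L entered only through the arrays on which they were high, and of the 11 genes above the controls in CoMO itself 7 passed. In xSox6-MO 4 of 12 passed 2-fold upwards, beside 1.03% of all genes, and 0 downwards, and 3 of the 12 had values below CoMO, with prss2.L the lowest at -0.68 (named after its value was seen). Their median was 0.72 beside -0.02, and of the 11 genes above the controls in CoMO 3 passed. With all 28 measured genes the medians were 0.25 and 0.04, because 15 were not above the controls on any array. Their summed intensity was 1003 in CoMO, 5578 in xMLTK-MO and 1641 in xSox6-MO. The elastase gene cela1.1.S had intensities of 89.6, 1342 and 245 in that order, and the chymotrypsin C gene ctrc.L 136, 1298 and 269. The pancreatic disulfide isomerase gene pdia2.L had 84.4, 791 and 240, and the lipase gene cel.2.S 49.4, 385 and 121. Each of these 4 was in the order of the insulin copies, but unlike insulin they were above the controls in CoMO.

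The step between the morphants was larger in those enzyme genes. cela1.1.S was 5.49-fold, ctrc.L 4.82-fold, pdia2.L 3.30-fold and cel.2.S 3.17-fold higher in xMLTK-MO than in xSox6-MO, beside 2.21-fold and 1.91-fold for ins.L and ins.S. Among 12 genes of the exocrine pancreas list 7 passed 2-fold upwards from xSox6-MO to xMLTK-MO and 0 downwards, beside 0.597% and 0.247% of all genes. Among the 7, cpa1.L entered only through the xMLTK-MO array, and of the 11 genes above the controls in xSox6-MO itself 6 passed. The median log2 difference of the 12 genes was 1.43, which was 0.27 over all 28 measured genes. Over all genes the median was 0.01 for those above the controls and 0.02 for all measured. pnlip.L went the other way, with 48.4 in xMLTK-MO and 72.3 in xSox6-MO. Whether insulin and the enzyme genes differ in this step beyond error was not tested, since each rests on 1 array per group.

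**Figure D3:**
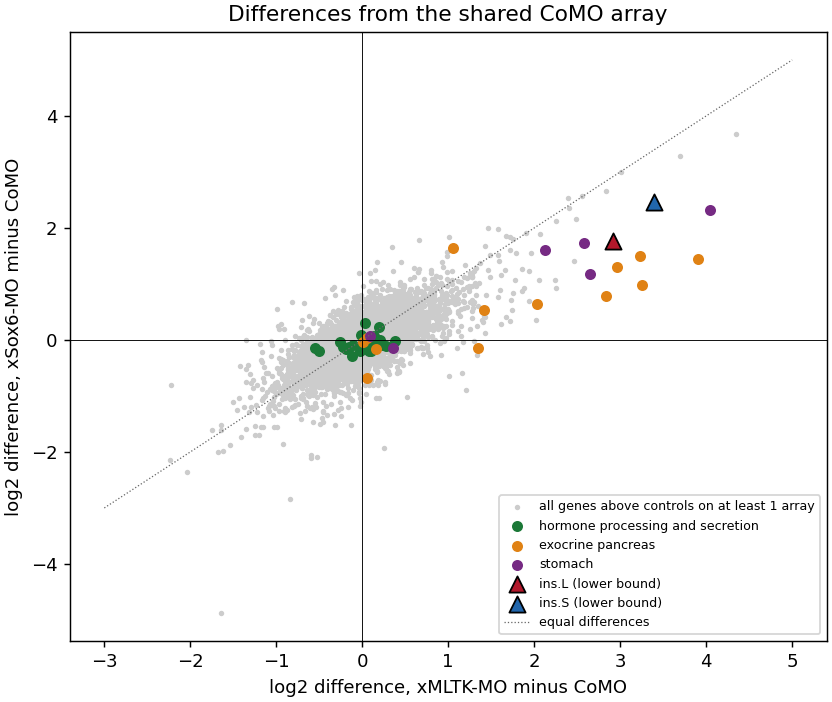
Log2 difference from CoMO in xSox6-MO (vertical) against xMLTK-MO (horizontal) for genes above the controls on at least 1 array, with insulin as triangles and 3 gene lists in colour; the axes share the CoMO array, so the slope of the cloud is not a result. The insulin triangles, lower bounds at 2.91 and 3.39 on the horizontal axis, lie below the line of equal differences, as do all exocrine pancreas points but that of pnlip.L. The point of cela1.5.L, not above the controls in either morphant, is placed there by the control values alone. Those of prss1.L and pnliprp1.S are below the line by only 0.04 and 0.02.

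Genes of the neighbouring gut gave a graded picture. The stomach list was added after atp4a.S and ctse had been seen among the largest differences, so its values only describe. Of 7 measured genes 6 were above the controls on an array of the xMLTK-MO comparison, of which 4 were at least 2-fold higher and 0 lower. In xSox6-MO 4 of 5 were at least 2-fold higher. Over all genes 1.51% were higher by as much in xMLTK-MO and 1.03% in xSox6-MO. atp4a.S entered only through the morphant arrays, and of the 4 genes above the controls in CoMO 3 passed in each comparison. The summed intensity of the list was 1435 in CoMO, 3484 in xMLTK-MO and 2339 in xSox6-MO. Of these sums the gene sox2.L alone gave 1071, 1137 and 1124, nearly level and most of the sum in CoMO. The cathepsin E gene ctse.L had intensities of 232, 1384 and 769 in those groups, and ctse.S 34.1, 214 and 76.8. cldn18.L, a tight junction gene of stomach and lung, had 75.1, 327 and 229, and atp4a.S had 10.2, 385 and 117.

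Of the 13 gut and foregut genes, 10 were above the controls. Of these 2 were at least 2-fold higher in xMLTK-MO and 0 in xSox6-MO, beside 1.51% and 1.03% of all genes. Their medians were 0.48 and 0.41, beside -0.02 over all genes above the controls in each comparison. The intestinal fatty acid binding gene fabp2.L had 126 in CoMO, 317 in xMLTK-MO and 104 in xSox6-MO. The endoderm and heart factor gata6.L had 97.8, 227 and 189, gata6.S 33.9, 66.0 and 48.8, and gata4.L 38.7, 58.4 and 51.7. The intestinal factors cdx1.S and cdx2.L were not above the controls on any array.

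Liver markers were measured as a check on the tissue. Of 21 genes, 0 were 2-fold higher or lower than CoMO in either morphant, a count that a list of this size would also give at the shares over all genes. The medians over those above the controls were 0.18 in xMLTK-MO and -0.06 in xSox6-MO, beside -0.02 over all genes in each. Against CoMO 14 were higher and 5 lower in xMLTK-MO, and 8 and 12 in xSox6-MO. Between the morphants 15 were higher in xMLTK-MO and 5 lower, with a median of 0.27. Their summed intensity was 30361 in CoMO, 32550 in xMLTK-MO and 27864 in xSox6-MO. The largest differences were those of the transferrin gene tf.S, with 130, 200 and 166, the prothrombin gene f2.S, with 150, 227 and 181, the apolipoprotein gene apoa1.L, with 1796, 1857 and 919, and the fetuin gene ahsg.L, with 152, 172 and 102. Liver genes were thus bright in all 3 groups although the labels name heads. The part that the share of trunk tissue in each sample may have had in the insulin values was not tested.

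Signal transduction genes downstream of insulin were mostly level. Of 31 genes of insulin and IGF signalling, 23 were above the controls, and their medians were 0.00 in xMLTK-MO and 0.04 in xSox6-MO. The receptor gene insr.L was not above the controls on any array, with 7.39 in CoMO, 6.51 in xMLTK-MO and 6.93 in xSox6-MO, and the related receptor gene insrr.L was likewise below them. The IGF receptor gene igf1r.S had 223, 268 and 230, and the receptor substrate gene irs1.L 365, 394 and 398. Of the 23 genes 2 were at least 2-fold higher in xMLTK-MO and 0 lower, beside 1.51% and 0.775% of all genes. Both were copies of igfbp1, a secreted IGF-binding protein whose liver mRNA insulin lowers in mammals. igfbp1.L had 77.1, 210 and 134, a fold of 2.72 in xMLTK-MO and 1.74 in xSox6-MO. igfbp1.S had 99.6, 243 and 156, a fold of 2.44 and 1.57. Their order across the groups was that of the insulin copies. The adaptor gene grb2.S had 292, 232 and 417. pdk1.S, which encodes a mitochondrial kinase of pyruvate dehydrogenase, had 42.0, 48.3 and 57.3.

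Metabolic genes that insulin controls in mammalian liver did not share a direction. Of 15 genes, 14 were above the controls on an array of the xMLTK-MO comparison, with 2 at least 2-fold higher and 1 lower. For xSox6-MO 1 of 13 was higher and 2 lower. The shares over all genes were 1.51% higher and 0.775% lower in xMLTK-MO, and 1.03% and 1.05% in xSox6-MO. g6pc1.1.L, a gene of glucose-6-phosphatase, the last step of glucose production, had intensities of 45.9 in CoMO, 127 in xMLTK-MO and 184 in xSox6-MO, 2.76-fold and 4.01-fold higher. Its homeolog g6pc1.1.S did not share this rise, with 48.9, 51.9 and 43.0 in those groups. g6pc1.2.S was above the controls only in xMLTK-MO, at 49.8, at least 2.14-fold higher. The gluconeogenic gene pck1.L had 1227, 1268 and 1960, and pck1.S 411, 418 and 681. scd.S, a fatty acid desaturase gene that insulin raises in mammals, had 422, 229 and 177 and was 2.39-fold lower in xSox6-MO. The tyrosine aminotransferase gene tat.S had 69.9 in CoMO and was not above the controls in either morphant, at least 2.67-fold lower in xMLTK-MO and at least 3.32-fold in xSox6-MO. For g6pc1.1.L and pck1 the highest array was xSox6-MO, unlike the insulin copies.

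The genes with the pattern most like insulin were sought by distance. For each of 9778 other genes above the controls on at least 1 array, the Euclidean distance between its log2 differences from CoMO in both morphants and the mean of those of the insulin copies, 3.15 and 2.11, was taken, a measure over 3 arrays that share CoMO. The copies themselves were 0.84 from each other. Their mean lies midway, so each copy was closer to it than that, and 0.84 does not compare with the distances below. The median gene was 3.82 from the mean of the copies. The 10 nearest were pdia2.L, the serine dehydratase gene sds.L, the matrix metalloproteinase gene mmp9.1.S, ctse.L, the protease gene xepsin.S, satpb.L, cel.2.S, phyhdlb.L, crisp1.5.S and the cell cycle inhibitor gene cdkn1a.L, at distances from 0.61 to 0.91. This set and its order depend on the floor, since the insulin differences from CoMO are lower bounds. With measured values and no floor, an alternative added after seeing the data, the insulin mean was 4.13 and 3.09. Then 7 of the 10 remained among the nearest 10, each at a larger distance than with the floor. Those 7 lay from 1.13 (crisp1.5.S) to 1.89 (mmp9.1.S) from the insulin mean, with pdia2.L at 1.83. ctse.L, cel.2.S and cdkn1a.L gave way to astl3a.1.L, a gene of the astacin protease family, which was nearest at 0.47, and to atp4a.S and cela1.1.S.

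The step between the morphants does not involve CoMO. For pdia2.L, cel.2.S and ctse.L, digestive genes of the first set, xMLTK-MO was 3.30-fold, 3.17-fold and 1.80-fold above xSox6-MO, beside 2.21-fold and 1.91-fold for ins.L and ins.S. The other 7 of that set lay between 0.908-fold and 1.25-fold, with 1.12-fold for sds.L and 1.01-fold for crisp1.5.S, and phyhdlb.L was the lowest.

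**Figure D4:**
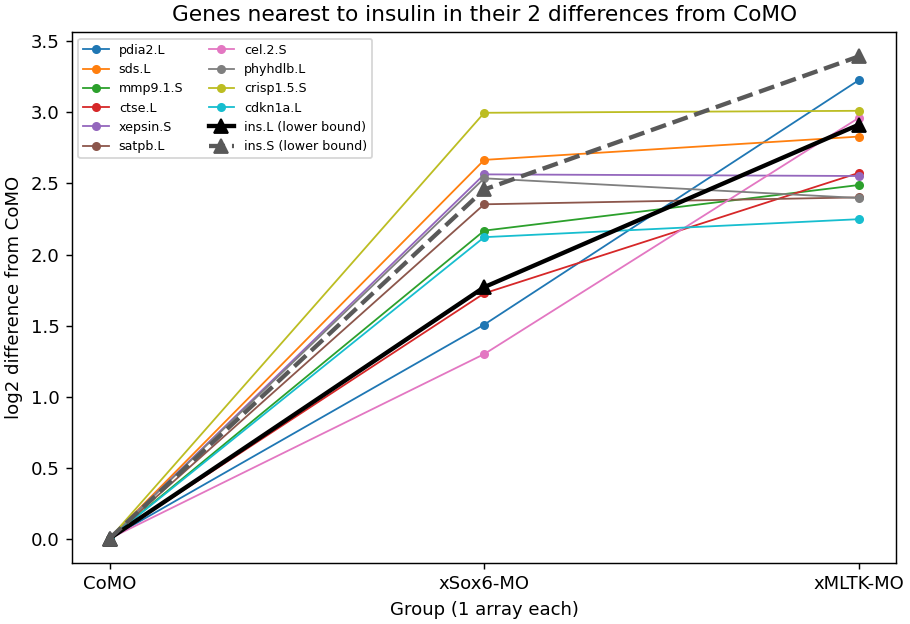
Log2 difference from CoMO (0 by definition) in xSox6-MO and xMLTK-MO for the 10 genes nearest to insulin with values raised to the controls (thin lines) and for ins.L and ins.S (thick lines, lower bounds), 1 array per group; the lines only join the groups. The 3 digestive genes pdia2.L, cel.2.S and ctse.L lie higher in xMLTK-MO than in xSox6-MO, as insulin does, and the other 7 are nearly level there.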

How the data were processed

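RNA from tadpole heads was measured on 1 GeneChip Xenopus laevis Genome 2.0 array per group, grouped by its treatment label. The deposited intensities are on a linear scale and were made by the authors with RMA (background correction, quantile normalisation, probe-set summary), per the submitters' processing notes, in GeneChip operating Software 1.4 and GeneSpring GX 11.0.2, per the labels' design text. Quantile normalisation hides a change of all transcripts together. Log2 was taken here (Python 3.11.15, pandas 2.3.3).

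Of 32635 probe sets 15505 had 1 symbol, 279 several and 16851 none. Symbols were updated through gene identifiers for 15394, which changed 2, and 96 control probe sets were left out. Probe sets of a symbol were averaged, though each insulin gene had 1. Values below the highest of 23 negative controls were raised to it. The level filter was a mean log2 intensity of 6.51. No test was possible with 1 array per group, so a 2-fold threshold was used. The steps were checked on simulated data. No sequences were used.

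Members, lists, thresholds and the bound rule were chosen with earlier results of these data known. Genes named are the insulin copies, the islet hormone and insulin family lists, up to 4 genes of each other list with the largest difference from CoMO, and the 10 nearest in pattern. The receptor, substrate, pck1, g6pc1.1.S, pnlip, ptf1a and intestinal factor genes, the list of stomach genes, and the names of homeolog pairs and of genes gained from below the controls were added after values were seen. Alternatives tried were another floor, no floor, other scaling and the brightest probe set.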

Additional observations from a re-analysis of the deposited data

How the results depend on the processing

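The bounds of the insulin genes depended on where the floor was set, and in every setting tried both copies stayed higher in each morphant than in CoMO. With the floor at the 95th percentile of the negative controls, the log2 differences from CoMO became 3.71 (ins.L) and 4.19 (ins.S) in xMLTK-MO and 2.57 and 3.25 in xSox6-MO. With no floor, from measured values, they were 3.84 and 4.43 in xMLTK-MO and 2.69 and 3.49 in xSox6-MO. These exceed the bounds because the insulin readings in CoMO lay below the floor. Renewed quantile normalisation and centring on hybridisation controls moved no insulin value by 1.5 times; the brightest probe set could not, as each insulin gene has 1. Without the level filter, 82 instead of 52 genes were 2-fold different between the morphants, as more genes enter. Leaving the brightest probe set out for insulin, 27 of 36 recomputed insulin values and total gene counts moved by less than 1.5 times, and 0 insulin values changed sign. Totals hide the split: centred on hybridisation controls, 122 genes were higher and 48 lower in xSox6-MO than in CoMO instead of 71 and 77. Of the 10 genes nearest in pattern, 7 remained with no floor, each at a larger distance from insulin. Of 21 list medians 5 moved by more, those of islet hormones against CoMO (1.51 and 0.83 above the controls) and of the exocrine pancreas (1.42, 0.72 and, between the morphants, 1.43 above the controls, against 0.25, 0.04 and 0.27 over all measured genes). Both insulin copies are on the islet hormone list. Without them its medians above the controls were 0.07 in xMLTK-MO and -0.12 in xSox6-MO, over 2 genes. No paired analysis was possible because each group has 1 array. The single CoMO array, and the dimness of insulin on it, limit every comparison with it.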

Other observations

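Neurons and pituitary cells, other sources of peptide hormones in a head, were examined beside insulin. Of 15 neuron genes 0 differed from CoMO by 2-fold in either morphant. A list of this size would also give that count at the shares over all genes. The medians were -0.06 in xMLTK-MO and -0.07 in xSox6-MO, signs that turn when the arrays are centred on hybridisation controls. The neurofilament genes nefl.L and nefm.L had log2 differences of 0.80 and 0.65 in xMLTK-MO and 0.48 and 0.54 in xSox6-MO, while slc17a7.L, a vesicular glutamate transporter gene, had -0.29 and -0.82 and the microtubule gene map2.S -0.39 and -0.51.

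Of 9 pituitary genes 5 were above the controls on an array of each comparison with CoMO, and 0 of them differed by 2-fold. So few genes would also give that count at the shares over all genes. The growth hormone gene gh1.S had intensities of 86.6 in CoMO, 49.6 in xMLTK-MO and 44.0 in xSox6-MO. The second copy, gh1.L, was above the controls only in CoMO, at 25.0. The proopiomelanocortin genes had 370, 421 and 442 for pomc.L and 260, 344 and 366 for pomc.S.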
